A study of Mus musculus with 6 samples.

Results

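The transcripts described here are 10 genes of the MHC class I antigen processing pathway, taken by symbol from the 55487 genes in the files. They are the heavy chains H2-K1 and H2-D1, the light chain B2m, the peptide transporter subunits Tap1 and Tap2, the loading factor Tapbp, the immunoproteasome subunits Psmb8, Psmb9 and Psmb10, and the class I transactivator Nlrc5. All 10 were found and all 10 passed the filter on low values, which 13829 genes passed in all. J774 is a macrophage line derived from a BALB/c mouse, and the study used it to ask how loss of NCOA4, the cargo receptor that delivers ferritin to lysosomes, alters macrophage gene expression. Cells received control siRNA, a negative control duplex, or NCOA4 siRNA, a duplex that lowers the Ncoa4 transcript, with 3 biological replicates per treatment, and RNA-seq libraries were made from each. Both groups were the same line (clone E, per the methods), both were transfected with liposomes, and a single NCOA4 duplex was used, so an effect of that duplex on other transcripts cannot be told apart from an effect of NCOA4. How long after transfection the RNA was taken is not given in the sources used here.

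Class I molecules carry short peptides from proteins made inside the cell to the surface, where CD8 T cells inspect them. Proteasomes cut the proteins, the TAP transporter moves the peptides into the endoplasmic reticulum, and tapasin holds TAP beside an empty heavy chain paired with beta-2 microglobulin until a peptide binds. Interferon gamma raises most genes of this pathway in macrophages, in part through IRF1 and NLRC5, and it replaces the 3 catalytic subunits of the constitutive proteasome by those of the immunoproteasome.

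Transcript abundance is given as TPM, the reads of a gene per base of its length, scaled so that each library sums to 1000000. Reads were rebuilt from TPM and exon length, and 15502131 to 18282107 per library lay on genes whose length gave whole reads. For a transcript of 2 kb, 1 read amounts to 0.0825 to 0.0959 TPM. The targeted gene, Ncoa4, was at 19.7, 22.5 and 22.4 TPM in control replicates 1 to 3 and at 9.63, 8.60 and 8.88 TPM in NCOA4 siRNA replicates 1 to 3. Control replicate 1 stood apart, with 12.92% of its TPM on mitochondrial genes against 9.361 to 10.17% in the other 5 libraries. Its rebuilt reads differed from those of control replicates 2 and 3 by a mean chi-square per gene of 11.6 and 11.7. This was 3.6 between control replicates 2 and 3, and 1.96 to 2.35 between NCOA4 siRNA libraries. Among the 10 transcripts control replicate 1 held the lowest value of all 6 libraries for 9 and the highest for B2m, so results are also given without it. The libraries carried macrophage transcripts, with the 9 macrophage markers summing to 8617 to 8800.5 TPM in control and 8939.9 to 9040.5 TPM in NCOA4 siRNA libraries. The 5 B cell markers summed to at most 0.534 TPM and the 5 T cell markers to at most 0.174 TPM in any library. The 6 dendritic cell markers summed to 2.01 to 2.22 TPM in control and 2.68 to 3.20 TPM in NCOA4 siRNA libraries, of which Zbtb46 made up 1.78 to 1.94 and 2.16 to 2.71 TPM. A change in RNA per cell cannot be told apart from a change in the share of cells that carry it.

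Levels of the 10 transcripts spanned more than 2 orders of magnitude and kept the same order of mean TPM in both groups. B2m was far above the rest, at 2021 ± 284 TPM in control and 2054.7 ± 63.9 TPM in NCOA4 siRNA libraries (SD, n = 3 each). H2-D1, Psmb8, Tapbp, Psmb10 and H2-K1 followed between 67.4 and 166.5 TPM in control libraries. Tap2, Tap1 and Psmb9 lay between 14.6 and 26.3 TPM, and Nlrc5 was lowest at 4.37 ± 0.720 TPM in control and 5.33 ± 0.199 TPM in NCOA4 siRNA libraries. Neighbours in this order did not overlap between libraries of 1 group, except Tapbp with Psmb10 and Tap1 with Psmb9, which overlapped in both groups. These levels depend on the gene length used, since the exons of all Psmb9 isoforms cover 3660 bases and its principal transcript 1352, a ratio of 2.71, against 1 for B2m.

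**Figure D1:**
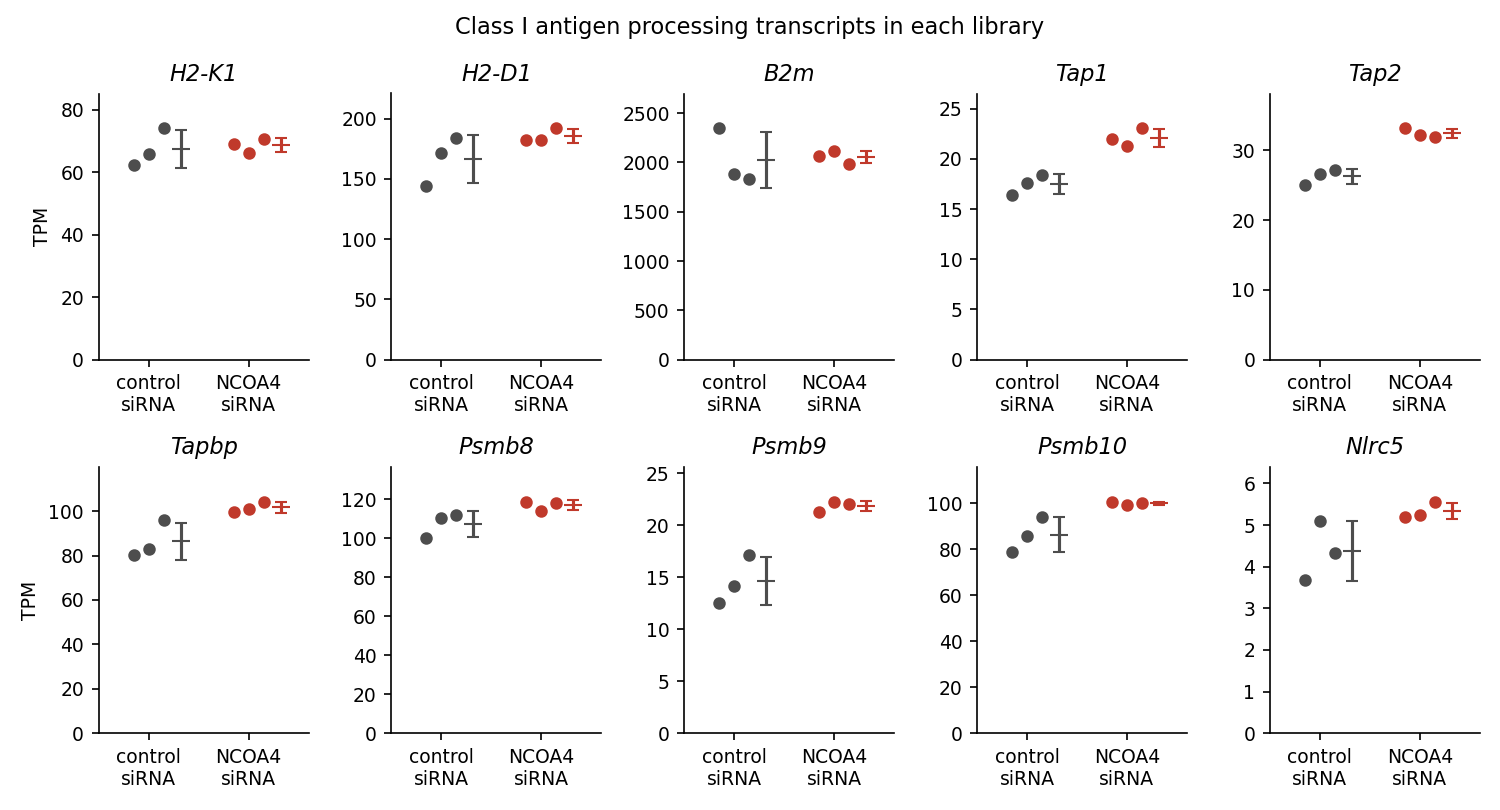
TPM of each transcript (vertical axes, each from 0) in the 3 control siRNA libraries (grey) and the 3 NCOA4 siRNA libraries (red), with points for replicates 1 to 3 from left to right and bars for the mean ± SD. The NCOA4 siRNA points lie above all control points for Tap1, Tap2, Tapbp, Psmb8, Psmb9, Psmb10 and Nlrc5, and overlap them for H2-K1, H2-D1 and B2m.

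Genes were tested with limma on log2(TPM + 0.5) with Benjamini-Hochberg adjustment over the 13829 genes, and a gene that passed has an adjusted p under 0.05. Of the 10 transcripts, Tap1, Tap2 and Psmb9 rose in NCOA4-deficient cells and none fell. The background is 3.11% of all genes higher and 2.31% lower, or 430 and 320 genes. Centring each library on its median turned this split to 348 higher and 622 lower, with the same 3 transcripts passing. At the study's additional threshold of a 1.5-fold change, which 0.861% of all genes met in the upward direction, none of the 10 was called. Psmb9 was closest, at 1.49-fold. It was called with limma-voom on rebuilt reads (log2 fold change 0.60) and without control replicate 3 (0.69). With 0.1 added to TPM instead of 0.5 it was also called, barely, at 0.586. The log2 fold changes ran from 0.028 for H2-K1 to 0.57 for Psmb9 with a median of 0.23, against a median of 0.031 over all genes tested. In 7 of the 10 every NCOA4 siRNA library was above every control library, a pattern that 16.6% of all genes tested showed.

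These calls were close to the threshold. Leaving out control replicate 2, or any single NCOA4 siRNA library, left 0 of the 10 with an adjusted p under 0.05. In these fits 5 to 7 of the 10 had an unadjusted p under 0.05 in limma, against 6 with all libraries. The share of all genes at that unadjusted level is not given here. Over all genes tested, the number that passed as higher also fell, from 430 of 13829 to 302 without control replicate 2. It was 94 to 109 without 1 NCOA4 siRNA library. With all 6 libraries, limma-voom on rebuilt reads called 5 of the 10, and 940 of 13609 genes as higher. Testing without the filter on low values kept Tap2 alone, and eBayes without a trend kept none, with 5 at an unadjusted p under 0.05. Over all genes these settings called 281 of 21096 and 260 of 13829 as higher. Without control replicate 1 the same 3 passed (background 3.28% higher) and the median was 0.16, and 8 of the 10 then did not overlap (background 20.7%).

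The heavy chains, which form the peptide groove, and B2m, the light chain shared by all class I molecules, did not pass the test. H2-K1 (ENSMUSG00000061232, minus strand of chromosome 17 from 33996017 to 34000347, GRCm38) was at 62.2, 65.9 and 74.0 TPM in control replicates 1 to 3 and at 69.0, 66.2 and 70.6 TPM in NCOA4 siRNA replicates 1 to 3. Its log2 fold change was 0.028 (95% interval -0.13 to 0.19, limma adjusted p = 0.854). H2-D1 (ENSMUSG00000073411, plus strand of chromosome 17 from 35262730 to 35267499) was at 144, 172 and 184 TPM in control and at 182, 182 and 192 TPM in NCOA4 siRNA libraries. The groups overlapped only through control replicate 3, and the log2 fold change was 0.16 (95% interval -0.045 to 0.37, limma adjusted p = 0.339).

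B2m (ENSMUSG00000060802, plus strand of chromosome 2 from 122147686 to 122153083) was at 2347, 1885 and 1830 TPM in control and at 2064, 2113 and 1987 TPM in NCOA4 siRNA libraries. Its spread came from control replicate 1, the highest of the 6, and the log2 fold change was 0.033 (95% interval -0.20 to 0.26, limma adjusted p = 0.882) with all libraries and 0.15 without that one. The intervals of H2-K1 and B2m reach up to 0.19 and 0.26, so rises of that size could not be told from no change with these libraries. Median centring turned the sign of both, to -0.030 and -0.025. Together the heavy chain transcripts H2-K1 and H2-D1 amounted to 8.80, 12.6 and 14.1% of the B2m TPM in control and 12.2, 11.7 and 13.2% in NCOA4 siRNA libraries. This ratio overlapped between groups, with a log2 difference of 0.092 (SE 0.211, exact two-sided permutation p = 0.9, and 1 after Benjamini-Hochberg adjustment over 4 ratios). Without control replicate 1 the difference was -0.11.

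BALB/c mice carry the H-2d haplotype, while the reference genome is from C57BL/6J, which carries H-2b. Class I heavy chain reads were therefore placed on alleles that differ from those of the cells, and the effect on H2-K1 and H2-D1 was not tested. Of the 75-base stretches of the principal transcripts, 1.55% for H2-K1 and 7.1% for H2-D1 also occur in another gene, among them H2-Q1 and H2-Q7, against 0 for B2m, so the authors' counting could have split some reads.

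The promoters of the 3 class I chains are shown because they hold letters known from class I promoters, and that of Tap1 because this transcript rose. The RefSeq table (GRCm38.p6) held 8 of the 10 promoters. The sequences run from 250 bases before to 50 bases after the RefSeq start of each gene, 5′ to 3′ on the strand of the gene. Gene extents are given from GENCODE M21, whose starts can differ. The windows of H2-D1, Tapbp and Psmb8 lie wholly inside those extents, so they do not describe the bases before the GENCODE starts. Capitals mark the letters searched on both strands. GGGGATTCCCC (the kappa B letters of class I enhancer A) and GTTTCACTTC (the class I interferon response sequence) were taken from the H2-K1 window itself. The others were GAAA and GAAA with 2 bases between them (an interferon-stimulated response element core), and TGACG and ATTGG (a cyclic AMP response element half-site and a Y box, parts of the SXY module to which RFX and NLRC5 complexes are recruited). A second Y box of H2-K1 and of H2-D1 and a second half-site of B2m are left in lower case. The windows lie at chr17:34000298-34000597 on the minus strand for H2-K1, chr17:35262844-35263143 on the plus strand for H2-D1, chr2:122147437-122147736 on the plus strand for B2m and chr17:34187306-34187605 on the plus strand for Tap1.
H2-K1: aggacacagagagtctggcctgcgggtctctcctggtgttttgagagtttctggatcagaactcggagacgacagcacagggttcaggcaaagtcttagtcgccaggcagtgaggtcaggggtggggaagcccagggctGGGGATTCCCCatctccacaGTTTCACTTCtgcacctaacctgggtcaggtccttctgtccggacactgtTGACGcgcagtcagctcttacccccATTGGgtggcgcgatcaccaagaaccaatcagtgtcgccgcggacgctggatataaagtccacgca
H2-D1: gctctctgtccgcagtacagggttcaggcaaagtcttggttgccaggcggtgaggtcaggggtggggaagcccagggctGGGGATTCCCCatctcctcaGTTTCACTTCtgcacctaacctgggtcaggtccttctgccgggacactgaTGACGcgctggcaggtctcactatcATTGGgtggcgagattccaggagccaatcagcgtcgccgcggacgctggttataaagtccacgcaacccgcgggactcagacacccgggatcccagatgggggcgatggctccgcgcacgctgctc
B2m: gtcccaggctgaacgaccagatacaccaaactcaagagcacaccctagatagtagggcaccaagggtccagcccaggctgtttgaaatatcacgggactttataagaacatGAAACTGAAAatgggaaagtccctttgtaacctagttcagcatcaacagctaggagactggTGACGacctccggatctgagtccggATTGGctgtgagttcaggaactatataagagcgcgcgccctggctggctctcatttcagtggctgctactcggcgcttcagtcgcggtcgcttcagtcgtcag
Tap1: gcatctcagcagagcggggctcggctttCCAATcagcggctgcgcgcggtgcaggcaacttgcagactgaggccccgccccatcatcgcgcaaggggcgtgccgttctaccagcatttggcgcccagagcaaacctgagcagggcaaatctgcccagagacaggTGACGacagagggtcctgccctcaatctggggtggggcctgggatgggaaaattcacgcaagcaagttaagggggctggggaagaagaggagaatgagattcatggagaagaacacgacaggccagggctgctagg

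The H2-K1 and H2-D1 windows held the same letters in the same order and were 89.5% identical over 239 aligned bases. Counting these windows, GGGGATTCCCC occurred in 10 of the 32851 promoters of the same length (0.0304%) and GTTTCACTTC in 46 (0.14%). B2m held neither, but GAAACTGAAA matched the response element core, which 3.44% of all promoters hold. In H2-K1, H2-D1 and B2m the half-site TGACG stood 20 bases before ATTGG. This spacing was found by looking at these windows, and 31 of all promoters (0.0944%) hold it on either strand. Tap1 held TGACG, as 20.8% of promoters do, and the Y box on the other strand, as 37.4% do, but not the spaced pair. The gamma-activated site, TTC and GAA with 3 bases between them, in 8.3% of all promoters, had no match in these 4 windows. The windows of Tapbp, Psmb8, Psmb9 and Psmb10 are not printed. They held neither of the runs taken from H2-K1, no interferon-stimulated response element core and no spaced pair. Psmb8 held a gamma-activated site match, TTCCCAGAA, and Tapbp, Psmb9 and Psmb10 held none. Psmb9, whose window shares 275 bases with that of Tap1, held a half-site and a Y box, and Tapbp held the Y box. Letters that match a motif in a window are a description and not a measured binding site.

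Of the peptide transport and loading transcripts, Tap1 and Tap2 rose and Tapbp did not pass the test. Tap1 (ENSMUSG00000037321, plus strand of chromosome 17 from 34187553 to 34197225), a subunit of the peptide transporter, was at 16.4, 17.6 and 18.4 TPM in control and at 21.98, 21.3 and 23.1 TPM in NCOA4 siRNA libraries. The groups did not overlap, and the mean rose from 17.5 ± 1.01 to 22.1 ± 0.895 TPM (SD, n = 3 each). The log2 fold change was 0.33 (SE 0.0628, limma adjusted p = 0.0318), a 1.26-fold rise. Tap2 (ENSMUSG00000024339, plus strand of chromosome 17 from 34203527 to 34216321), the partner subunit, was at 25.1, 26.5 and 27.2 TPM in control and at 33.2, 32.1 and 31.9 TPM in NCOA4 siRNA libraries. Every NCOA4 siRNA library was again above every control library, and the log2 fold change was 0.30 (SE 0.0497, limma adjusted p = 0.0225), a 1.23-fold rise. The transporter works as a dimer of both subunits. On the other strand, Tap2 shares 533 exonic bases with Gm15821, 14.1% of its exons, and 165 with Gm20496, 4.36%. These genes had means of 0 and 0.126 TPM, and reads in the shared bases may not all have been given to Tap2.

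Tapbp (ENSMUSG00000024308, plus strand of chromosome 17 from 33915899 to 33929292) encodes tapasin, which bridges the transporter and the empty class I molecule. It was at 80.3, 83.1 and 96.1 TPM in control and at 99.8, 101 and 104 TPM in NCOA4 siRNA libraries. The groups did not overlap, but the log2 fold change of 0.24 (SE 0.0701) did not pass (limma adjusted p = 0.113), and it passed without control replicate 3, at 0.31, and with limma-voom. Tapbp shares 149 exonic bases with Zbtb22 on the same strand, 4.11% of its exons, and 904 with Gm19412 on the other strand, so some of its reads could belong to those genes, which had means of 39.6 and 2.61 TPM. Tap1 lost its call when control replicate 2 or 3 or any single NCOA4 siRNA library was left out, and the limma adjusted p over the 6 such fits ran from 0.0468 to 0.131. Tap2 lost its call when control replicate 2 or any single NCOA4 siRNA library was left out, with limma adjusted p from 0.0292 to 0.105.

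**Figure D2:**
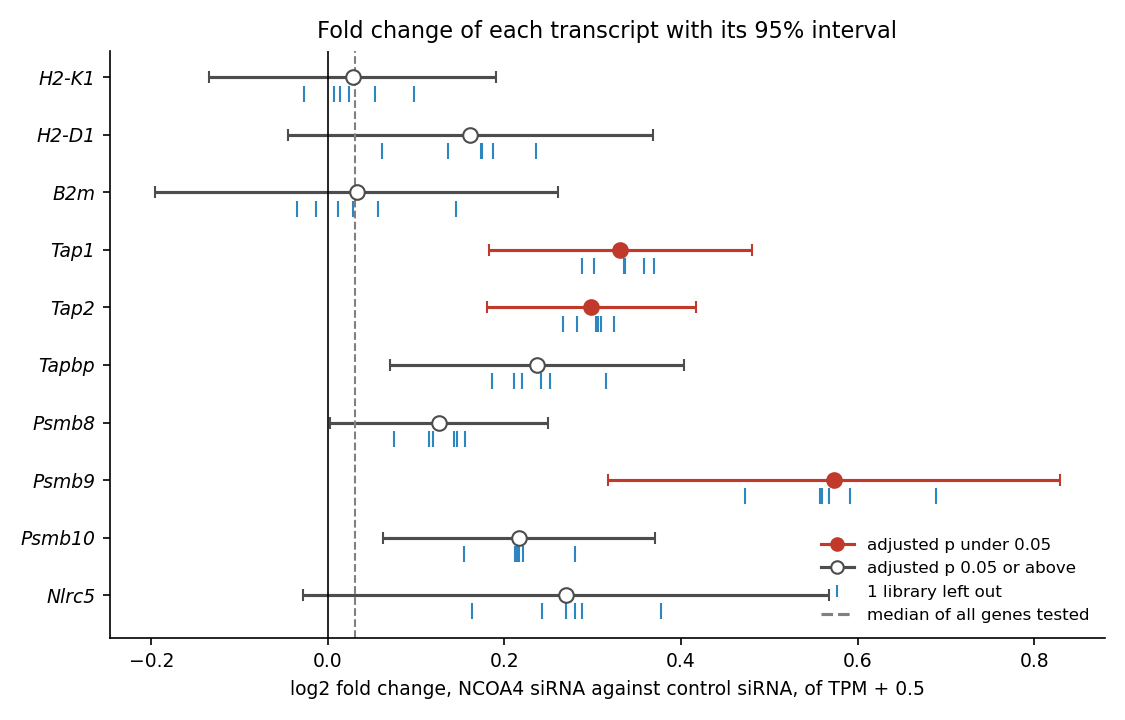
Log2 fold change of TPM + 0.5, NCOA4 siRNA against control siRNA (horizontal axis), for each transcript, with its 95% interval from limma; filled red points passed the test and blue ticks are the values with 1 library left out. Psmb9, Tap1 and Tap2 lie at 0.57, 0.33 and 0.30, while the intervals of H2-K1, H2-D1, B2m and Nlrc5 cross 0; the dashed line is the median of all genes tested, 0.031.

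Of the immunoproteasome subunits, Psmb9 rose and Psmb8 and Psmb10 did not pass the test. Psmb9 (ENSMUSG00000096727, minus strand of chromosome 17 from 34181987 to 34187764), which takes the place of the constitutive beta-1 subunit Psmb6, was at 12.6, 14.2 and 17.1 TPM in control and at 21.3, 22.3 and 22.005 TPM in NCOA4 siRNA libraries. The control libraries held 264, 315 and 327 rebuilt Psmb9 reads and the NCOA4 siRNA libraries 452, 444 and 486. All NCOA4 siRNA libraries were above all control libraries, and the control libraries differed more among themselves, with an SD of 2.32 against 0.520 TPM. The log2 fold change of 0.57 (SE 0.108, limma adjusted p = 0.0313) was the largest of the 10 in size. Its call was lost when control replicate 2 or any single NCOA4 siRNA library was left out, with limma adjusted p from 0.0187 to 0.122.

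Psmb10 (ENSMUSG00000031897, minus strand of chromosome 8 from 105935735 to 105938444), the counterpart of beta-2 subunit Psmb7, was at 78.9, 85.8 and 94.0 TPM in control and at 101, 99.4 and 100.01 TPM in NCOA4 siRNA libraries. The groups did not overlap, and the log2 fold change was 0.22 (SE 0.0648, limma adjusted p = 0.117). It passed with limma-voom on rebuilt reads, where its adjusted p was 0.0355. Psmb8 (ENSMUSG00000024338, plus strand of chromosome 17 from 34197721 to 34201454), the counterpart of beta-5 subunit Psmb5, was at 99.9, 110 and 112 TPM in control and at 119, 114 and 118 TPM in NCOA4 siRNA libraries. Its groups did not overlap either, by the smallest margin of the 3 subunits, and the log2 fold change was 0.13 (SE 0.052, limma adjusted p = 0.225). Psmb8 shares 498 exonic bases with Gm20496 on the other strand, 14.7% of its exons.

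Among the constitutive counterparts Psmb6 fell and Psmb5 and Psmb7 did not pass the test. Psmb6 went from 326, 326 and 320.0 TPM in control to 272, 279 and 282 TPM in NCOA4 siRNA libraries (log2 fold change -0.22, SE 0.034, limma adjusted p = 0.0179). The groups were well apart, although the call was lost when any single NCOA4 siRNA library was left out. Psmb5 was at 234, 291 and 387 TPM in control and 307, 320.1 and 352 TPM in NCOA4 siRNA libraries, with a log2 fold change of 0.13 (limma adjusted p = 0.704). Psmb7 was at 164, 196 and 191 TPM in control and 177, 179 and 183 TPM in NCOA4 siRNA libraries, with a log2 fold change of -0.029 (limma adjusted p = 0.846).

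As a share of its constitutive counterpart within each library, Psmb9 was at 3.85, 4.36 and 5.36% of Psmb6 TPM in control and at 7.81, 7.97 and 7.81% in NCOA4 siRNA libraries. The mean moved from 4.52 ± 0.764 to 7.86 ± 0.0914% (SD, n = 3 each), a log2 difference of 0.81 (SE 0.139), and the groups did not overlap. Psmb10 was at 47.9, 43.8 and 49.2% of Psmb7 in control and at 56.8, 55.5 and 54.7% in NCOA4 siRNA libraries, again without overlap, a log2 difference of 0.25 (SE 0.0534). Psmb8 was at 42.6, 37.9 and 28.8% of Psmb5 in control and at 38.6, 35.6 and 33.6% in NCOA4 siRNA libraries, within the control range, a log2 difference of -0.0034 (SE 0.177, exact two-sided permutation p = 1). Of the 4 ratios computed, counting that of heavy chains to B2m, Psmb9 to Psmb6 and Psmb10 to Psmb7 gave an exact two-sided permutation p of 0.1 each, the smallest that 3 libraries against 3 allow, and 0.2 after Benjamini-Hochberg adjustment. Since Psmb9 rose and Psmb6 fell, both terms contributed to the ratio of Psmb9 to Psmb6. The size of each share depends on the gene lengths used. All exons were 2.71 times the principal transcript for Psmb9, 2.08 for Psmb8 and 1.3 for Psmb10. The shares can therefore be compared between groups but not between subunits.

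**Figure D3:**
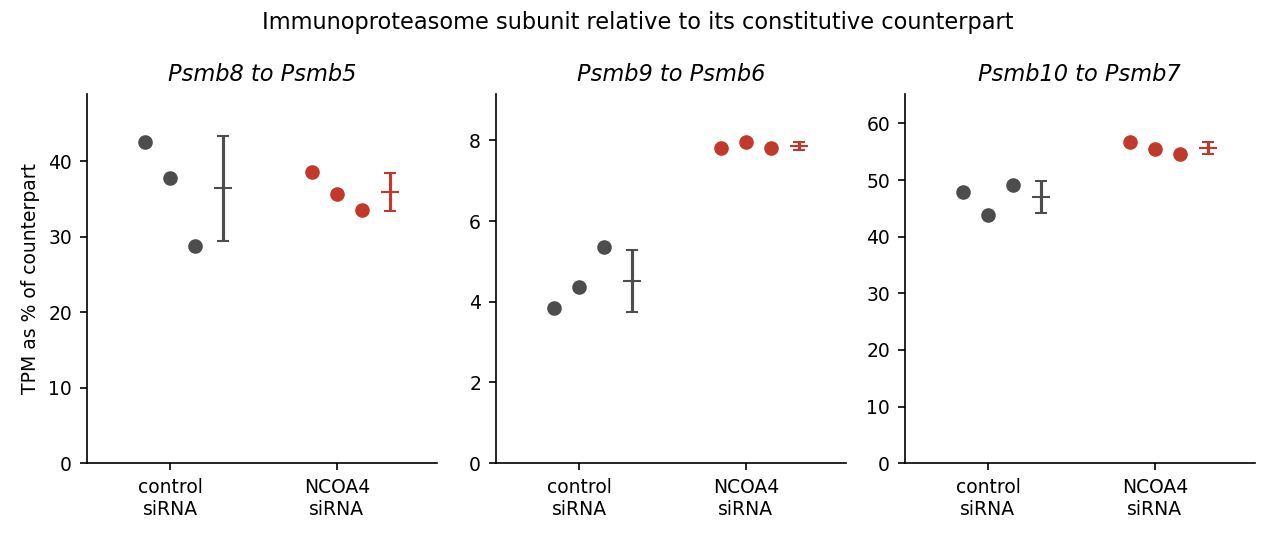
TPM of each immunoproteasome subunit as a percentage of the TPM of its constitutive counterpart (vertical axes, each from 0) in each control siRNA (grey) and NCOA4 siRNA (red) library, with bars for the mean ± SD of 3 libraries. Psmb9 to Psmb6 lies at 3.85 to 5.36% in control and 7.81 to 7.97% in NCOA4 siRNA libraries, Psmb10 to Psmb7 does not overlap either, and Psmb8 to Psmb5 overlaps.

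Psmb9, Tap1, Psmb8 and Tap2 are the 4 protein-coding genes of a block of 34.34 kb in the MHC class II region, chromosome 17 from 34181987 to 34216321. Of the 22 genes annotated there and within 100 kb on either side, 8 were tested. The 3 that passed were Psmb9, Tap1 and Tap2, with Psmb8 lying between the last 2. Of the 4 tested genes outside the block, Brd2 had a log2 fold change of -0.069 at a mean of 121 TPM and H2-DMa one of 0.21 at 2.71 TPM. H2-DMb2 and H2-Oa had means of 0.579 and 0.619 TPM and log2 fold changes of 0.60 and 0.87, and none of these 4 passed. Tap1 and Psmb9 are transcribed in opposite directions. Their RefSeq starts are 226 bases apart, with neither start inside the other gene, and the promoter windows at these starts share 275 of 300 bases. In GENCODE M21, which places the start of Psmb9 inside Tap1, their exons overlap by 212 bases on opposite strands, 3.87% of those of Tap1 and 5.79% of those of Psmb9. The library kit keeps the strand, but the strand setting used in counting is not given in the sources used here, so reads in those 212 bases may have been given to either gene or to neither.

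**Figure D4:**
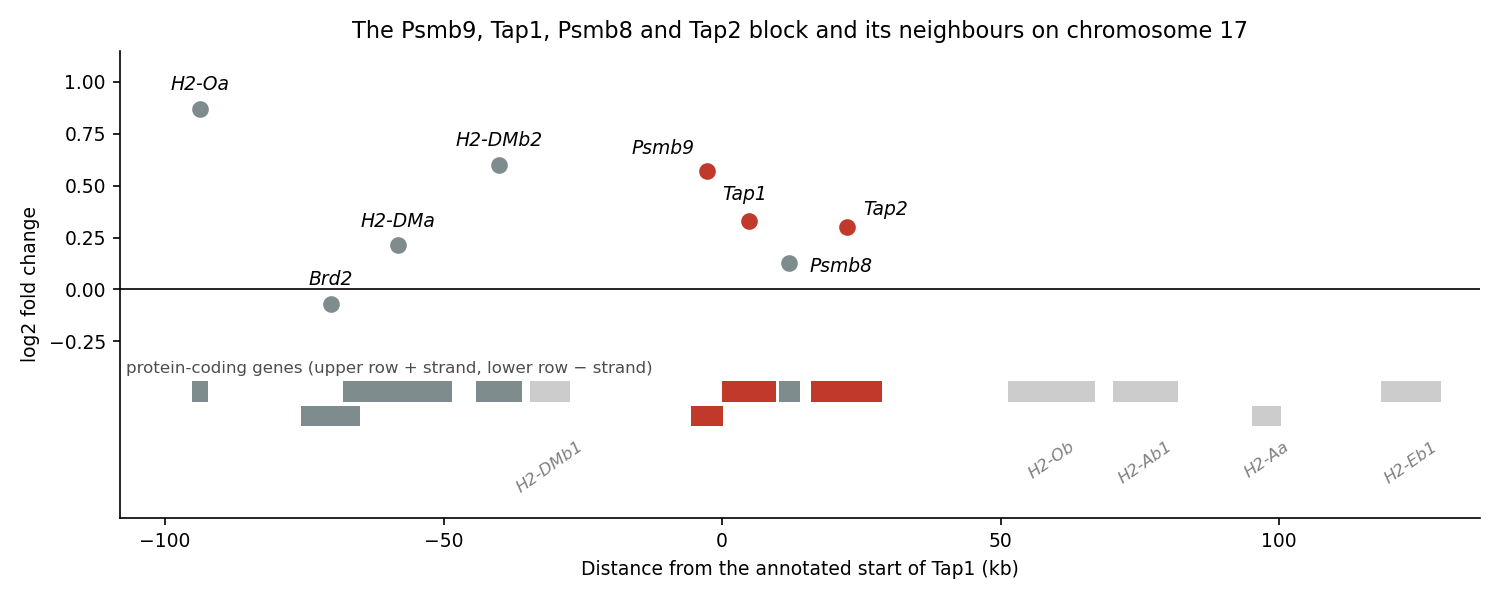
Log2 fold change (vertical axis, points) of the tested protein-coding genes around Tap1 against distance in kb from the annotated start of Tap1 (horizontal axis), with gene extents below as bars on the plus (upper) and minus (lower) strand. Red marks genes that passed (Psmb9, Tap1, Tap2), dark grey tested genes that did not pass, and light grey genes below the filter on low values.

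Nlrc5 (ENSMUSG00000074151, plus strand of chromosome 8 from 94434356 to 94527272) drives class I transcription. It was at 3.67, 5.11 and 4.34 TPM in control and at 5.19, 5.25 and 5.56 TPM in NCOA4 siRNA libraries. The highest control and lowest NCOA4 siRNA values were nearly equal, and the log2 fold change was 0.27 (95% interval -0.028 to 0.57, limma adjusted p = 0.273). Of the 15 other regulators of class I transcription tested, of 16 listed, 1 rose and 0 fell (background 3.11% higher and 2.31% lower), and the median of their log2 fold changes was 0.093. It was Irf1, an interferon-induced activator of Tap1, Psmb9 and other genes of the pathway, at 15.1, 15.6 and 14.6 TPM in control and at 20.8, 22.2 and 23.7 TPM in NCOA4 siRNA libraries. All NCOA4 siRNA libraries were well above control, and the log2 fold change was 0.54 (SE 0.0645, limma adjusted p = 0.00776). Irf1 passed with each library left out, but not with the replicate number as a block (limma adjusted p = 0.0515).

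Rfx5, the DNA-binding subunit of the RFX complex, was at 16.4, 18.01 and 15.4 TPM in control and at 20.4, 19.2 and 20.05 TPM in NCOA4 siRNA libraries (log2 fold change 0.25, limma adjusted p = 0.0904). It did not pass, although all NCOA4 siRNA libraries lay above all control libraries. Ciita, the class II transactivator, was listed at 0 in all 6 libraries. Of 8 interferon receptors and their kinases, 7 were tested and 1 rose (background 3.11% of all genes tested). That was Tyk2, a kinase of the type I interferon receptor, at 17.7, 18.6 and 18.6 TPM in control and 24.2, 24.3 and 25.9 TPM in NCOA4 siRNA libraries (log2 fold change 0.43, SE 0.053, limma adjusted p = 0.00885). Its groups were well apart, and the call was lost without NCOA4 siRNA replicate 3 and with the replicate number as a block.

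Other genes of the pathway were counted from lists. Across 98 genes of 9 lists, not counting the 10, 90 were tested, and the median of their log2 fold changes was 0.012. Of the 90, 5 rose and 1 fell, where 3.11% of all genes tested rose and 2.31% fell. Of these 90, 18 were above and 18 below all control libraries, where 16.6 and 11.8% of all genes tested were. The nonclassical and class I-like chains had 2 of 13 tested genes that rose, of 19 listed, and a median of 0.18. Hfe, a class I-like protein that regulates iron uptake through the transferrin receptor, was at 5.51, 7.07 and 5.48 TPM in control and at 11.4, 11.4 and 10.5 TPM in NCOA4 siRNA libraries. It had the largest fold change of these 90, 0.84 on the log2 scale (SE 0.110, limma adjusted p = 0.0103), and its call was lost without NCOA4 siRNA replicate 1 or 2. Fcgrt, the class I-like heavy chain of the neonatal Fc receptor, was at 21.4, 27.6 and 29.0 TPM in control and at 37.1, 36.8 and 37.8 TPM in NCOA4 siRNA libraries (log2 fold change 0.52, SE 0.110, limma adjusted p = 0.0437). Both pair with B2m, and both were above control in every NCOA4 siRNA library, but the Fcgrt call held in 1 of 6 fits with a library left out, that without control replicate 1.

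Outside the immunoproteasome, no core or 19S subunit of the proteasome rose past the test. Of 11 other subunits of the 20S core none passed in limma, of 18 subunits of the 19S regulator none passed, and with the 3 constitutive catalytic subunits the 32 had a median log2 fold change of -0.054. In the 19S list 17 of 18 fold changes were below 0, as were 5896 of all 13829 genes tested, and the median was -0.087. In that list 9 genes lay below all control libraries (background 11.8% of all genes tested). Of 9 proteasome activators and assembly factors 1 rose (background 3.11% of all genes tested), Psme1, a subunit of the interferon-inducible PA28 cap. It was at 172, 172 and 175 TPM in control and at 198, 196 and 207 TPM in NCOA4 siRNA libraries (log2 fold change 0.21, SE 0.0368, limma adjusted p = 0.0251). The groups were clearly apart, yet the call held in 1 of 6 fits with a library left out, again that without control replicate 1, and was lost with median centring. None of 7 folding, editing and trimming factors of the endoplasmic reticulum and none of 7 peptidases passed, and the medians of their log2 fold changes were 0.0021 and 0.020.

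**Figure D5:**
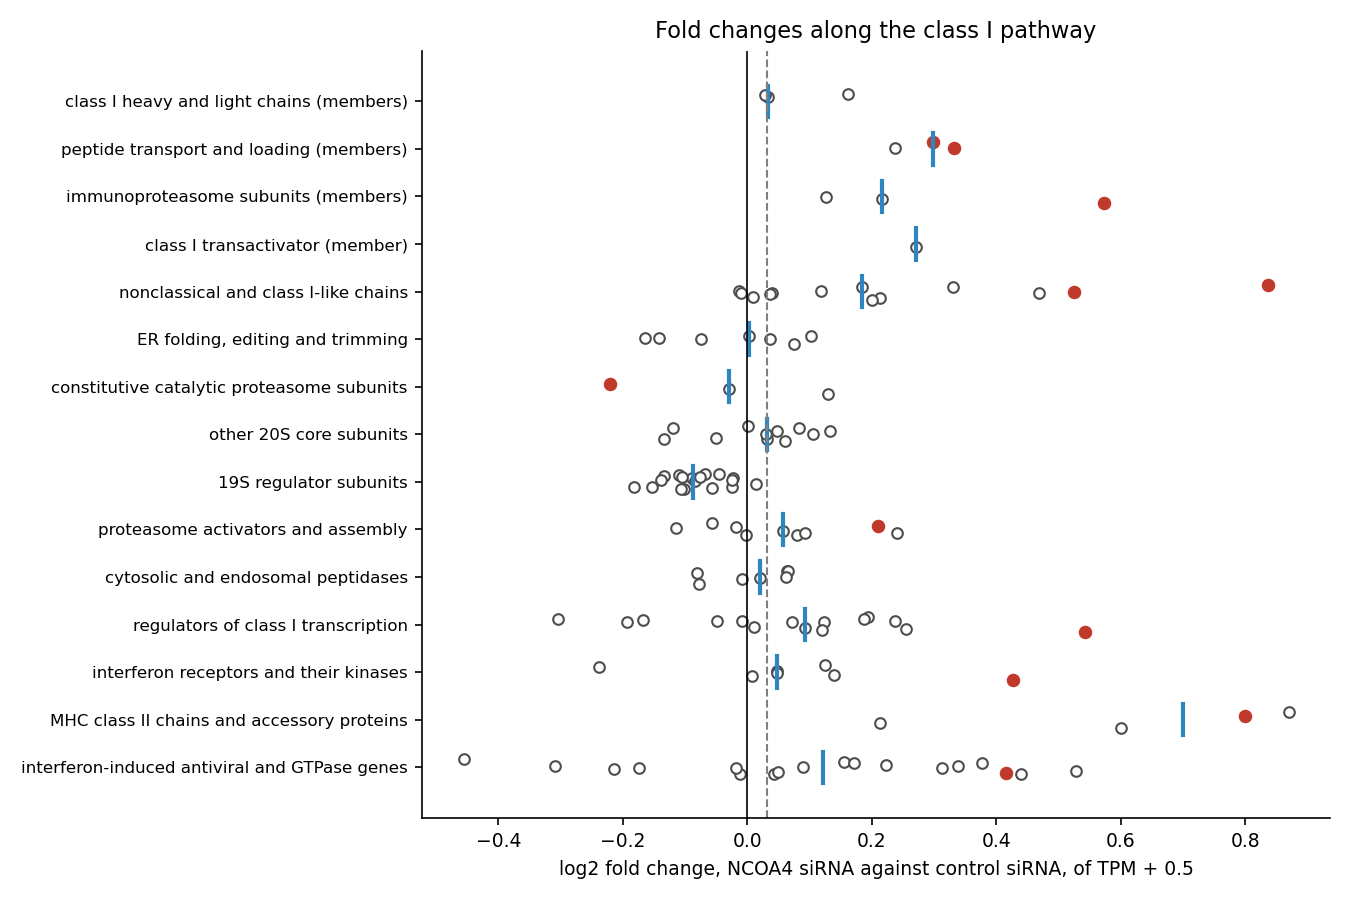
Log2 fold change of TPM + 0.5 (horizontal axis) of every tested gene in each list (vertical axis), with red points for genes that passed, blue bars for the median of the list and a dashed line for the median of all genes tested, 0.031. Transport and loading, the immunoproteasome and Nlrc5 have medians of 0.22 to 0.30, while the 19S regulator lies at -0.087.

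For comparison, 2 lists outside the pathway were read in the same way. Of 24 interferon-induced antiviral and GTPase genes 18 were tested and 1 rose (background 3.11% of all genes tested), and the median of their log2 fold changes was 0.12. It was Irf7, a regulator of type I interferon genes, at 9.04, 9.44 and 8.43 TPM in control and 11.9, 11.7 and 12.7 TPM in NCOA4 siRNA libraries (log2 fold change 0.42, SE 0.0709, limma adjusted p = 0.0237). The groups were apart, and the call was lost when control replicate 3 or any single NCOA4 siRNA library was left out. Of 11 MHC class II chains and accessory proteins 5 were at 0 in every library, among them H2-Aa, H2-Ab1 and H2-Eb1, and 4 were tested. Cd74, the invariant chain that guides class II molecules, was at 335, 368 and 415 TPM in control and at 658, 636 and 646 TPM in NCOA4 siRNA libraries. All NCOA4 siRNA libraries were far above control, and the log2 fold change was 0.80 (SE 0.076, limma adjusted p = 0.00398), which passed in all 16 alternatives.

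Macrophage markers moved in both directions. Of the 9 markers, Fcgr1, Mertk, Csf1r and Adgre1 rose and Cd14 fell (background 3.11% higher and 2.31% lower). Fcgr1, a receptor for antibody Fc, had a log2 fold change of 0.59 (limma adjusted p = 0.00436), about the size of that of Psmb9, and Cd14 one of -0.27 (limma adjusted p = 0.0361). Most of the summed level was Lyz2, which encodes lysozyme, at 4884.5 ± 193 TPM in control and 5409.3 ± 51.7 TPM in NCOA4 siRNA libraries (SD, n = 3 each), and it did not pass (log2 fold change 0.15, limma adjusted p = 0.161). Cd68, a lysosomal membrane protein, was below all control libraries in every NCOA4 siRNA library and did not pass either (log2 fold change -0.22, limma adjusted p = 0.178). The part of macrophage state or cell composition in the rise of Tap1, Tap2 and Psmb9 was not tested.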

How the data were processed

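J774 cells treated with control siRNA or NCOA4 siRNA were profiled by RNA-seq, with 3 libraries per group, grouped by their labels. The authors deposited 1 table of TPM per library for 55487 Ensembl genes, without scaling between libraries. The submitters' processing notes name Trimmomatic 0.33, FastQC, HISAT2 2.1.0, featureCounts and edgeR with mm10 (GRCm38). The annotation release and the strand setting of counting are not given in the sources used here. Names, positions and lengths came from GENCODE M21, in which 55227 identifiers were found and 260 were not. Of the 21096 genes above 0, 98.455% gave whole reads in all libraries (tolerance 0.02 reads) when TPM was multiplied by exon length. These rebuilt reads gave the depth and a limma-voom alternative.

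The filter kept 13829 genes whose mean over the 6 libraries reached 0.5 TPM. limma 3.58.1 in R 4.3.3 (lmFit, then eBayes with its trend option) was applied to log2(TPM + 0.5), and p-values were adjusted by Benjamini-Hochberg over these genes. Fold changes are on that scale, which understates those of low genes. Ratios were compared by an exact permutation test over 20 arrangements of the libraries, whose smallest p is 0.1. Of each list, up to 4 genes that passed and had the smallest adjusted p were named, besides the 10 transcripts, Ncoa4, Psmb5, Psmb6, Psmb7, Irf1, Rfx5 and Ciita. A gene that this rule also names is not reported here. Other names (the neighbours of the block and the macrophage markers) were chosen after their values were seen. The 10 transcripts and the lists were chosen with earlier results of these data known. Alternatives were each library left out, the replicate number as a block, limma-voom, eBayes without a trend, quantile normalization, median centring, filters of 0 and 5 mean TPM, pseudocounts of 1 and 0.1, and ratios of group means. Removal of mitochondrial genes was chosen after seeing the data. Replicates were labelled as biological, and over the genes tested their deviations showed no clear pairing by number.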

Additional observations from a re-analysis of the deposited data

How the results depend on the processing

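The lowest of the 10 transcripts, Nlrc5, had at least 179 rebuilt reads in every library. J774 alleles of H2-K1 and H2-D1 differ from the reference. Of the 10 transcripts, 3 passed with pseudocounts of 1 and 0.1, quantile normalization, median centring, removal of mitochondrial genes and a filter of 5 mean TPM, under which Nlrc5 was not tested. The count was 1 with no filter, 0 with eBayes without a trend, 5 with limma-voom and 0 with the replicate block, and 0 to 3 with 1 library left out. Of all genes, 750 passed, against 499 with no filter, 404 with eBayes without a trend, 1484 with limma-voom, 161 with the replicate block and 174 to 841 with 1 library left out. With the 1.5-fold threshold 163 were called, against 87 with the replicate block and 93 to 173 with 1 library left out. Of the pathway lists 6 genes passed, against 3 with eBayes without a trend, 10 with limma-voom, 1 with the replicate block and 2 to 8 with 1 library left out. The calls of Psmb6, Psme1 and Fcgrt were among those lost with eBayes without a trend, and that of Fcgrt with no filter. With the replicate block those of Irf1, Tyk2, Psmb6, Psme1, Fcgrt and Irf7 were lost, and those of Hfe and Cd74 held. The median log2 fold change of the 10 was 0.23, and 0.17 with median centring, 0.20 with quantile normalization and 0.16 to 0.28 with 1 library left out. H2-K1 and B2m turned to -0.030 and -0.025 with median centring, and ranged from -0.027 to 0.097 and -0.034 to 0.15 with 1 library left out. The log2 ratio of Psmb8 to Psmb5 was 0.023 as a ratio of group means and ranged from -0.16 to 0.12 with 1 library left out, and that of heavy chains to B2m from -0.11 to 0.23. The cause of these changes was not tested. Psmb9 to Psmb6 ranged from 0.70 to 0.94 and Psmb10 to Psmb7 from 0.20 to 0.28. The labels state nothing that libraries with the same number shared besides that number. Their deviations from the group means correlated at 0.028, -0.019 and 0.023, and not every library correlated best with its own number. These correlations over the genes tested cannot show whether some genes shared more. Whether the block fits the design was not tested, so a call lost under it is no clear measure of a weaker effect.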
